A study of Mus musculus with 7 samples.

Results

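The messages of 4 anterior pituitary hormones and of transthyretin were followed in macrophages sorted from mouse brain. The genes were growth hormone (Gh), prolactin (Prl), pro-opiomelanocortin (Pomc), the shared alpha subunit of the glycoprotein hormones (Cga) and transthyretin (Ttr). Every probe set that carries 1 gene symbol, and that symbol one of these 5, was taken, which gave 12 of the 45101 probe sets and 5 of the 18193 genes of the array. Gh and Ttr were chosen by their measured values, since they were far lower in the tumour samples of these same arrays, so their differences are given as a description and without a test. Prl, Pomc and Cga were picked for what they encode, to see whether the growth hormone signal is shared by other pituitary hormones.

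The anterior pituitary lies below the hypothalamus and releases its hormones into the blood. Somatotrophs make growth hormone, lactotrophs make prolactin, corticotrophs and melanotrophs make pro-opiomelanocortin, and thyrotrophs and gonadotrophs make the alpha subunit that pairs with a specific beta subunit (Tshb, Fshb or Lhb). Pomc is also expressed by a small group of hypothalamic neurons. Transthyretin carries thyroid hormone and, through retinol-binding protein, retinol. Within the brain its main source is the choroid plexus epithelium, which secretes it into the cerebrospinal fluid, while the liver supplies the blood. Macrophages are not known as a main source of any of these products.

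Macrophages were sorted with GFP and the surface marker F4/80 after papain digestion of the brain, and their RNA was hybridised as biotinylated cRNA to Affymetrix mouse arrays. The 3 normal brain arrays came from C57/Bl6 mice 8 weeks old. The 4 GL261 arrays came from tumours of the GL261 glioma line (Gl261 in the labels), which had grown for 21 days after intracranial injection into C57/Bl6 mice that had received GFP bone marrow, and the labels do not give the age of these mice. From the labels it is not known if mice without a tumour had received GFP marrow, if both groups were sorted alike, if each array stands for its own mouse, or how the brain was cut from its surroundings. The p-values thus cover the spread among 7 arrays, which may be technical.

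Each value is a MAS5 signal, a linear intensity, and the array medians ran from 49.5 to 73.0. A background level was read on each array from 27 unspiked Bacillus control probe sets, as their 95th percentile, and ran from 12.4 to 20.1. The 12 macrophage markers were above it on all 7 arrays, with 0 called higher and 1 called lower in GL261. In some red cell and vessel genes (Hbb-b2, Alas2, Cldn5, Slco1a4) GL261 replicate 2 read far higher than replicates 1, 3 and 4 of its group, as described with those genes. The Gapdh 3'/5' probe set ratio, a measure of RNA integrity and labelling, had a mean of 2.41 ± 0.0243 (SD, n = 3) for normal brain against 1.75 ± 0.127 (SD, n = 4) for GL261. An exact permutation test (two-sided) gave p = 0.0286, the smallest that 35 splits allow. The actin 3'/5' ratio had a mean of 1.57 ± 0.116 (SD, n = 3) for normal brain against 1.42 ± 0.0715 (SD, n = 4) for GL261. Its groups overlapped, and the same permutation test gave p = 0.143. The part of RNA integrity and labelling in the results was not tested.

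The promoters are shown because the factors that drive these hormones in the pituitary recognise short motifs there. RefSeq sequence (GRCm38.p6) was matched for Prl, Pomc and Cga, from 250 bases before to 50 bases after the gene's start. Capitals mark ATGNATA, the core bound by the pituitary factor Pou1f1, and TATAAA, the TATA box, on either strand. TAATCC, the core bound by Pitx1, was searched as well. The Prl promoter, at chr13:27057320-27057619 on the plus strand, the Pomc promoter, at chr12:3954695-3954994 on the plus strand, and the Cga promoter, at chr4:34893529-34893828 on the plus strand, read as follows.
Prl: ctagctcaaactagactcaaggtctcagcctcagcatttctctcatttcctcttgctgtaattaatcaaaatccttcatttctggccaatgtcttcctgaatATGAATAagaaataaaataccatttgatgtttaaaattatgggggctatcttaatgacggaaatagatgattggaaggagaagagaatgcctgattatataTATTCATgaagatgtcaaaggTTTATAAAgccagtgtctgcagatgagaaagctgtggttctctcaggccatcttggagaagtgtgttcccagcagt
Pomc: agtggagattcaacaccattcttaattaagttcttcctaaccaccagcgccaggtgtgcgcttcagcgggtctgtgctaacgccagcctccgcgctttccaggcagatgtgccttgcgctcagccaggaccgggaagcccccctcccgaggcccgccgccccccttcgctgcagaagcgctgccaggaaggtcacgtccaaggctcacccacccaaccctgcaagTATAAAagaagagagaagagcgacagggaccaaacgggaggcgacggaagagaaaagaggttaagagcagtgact
Cga: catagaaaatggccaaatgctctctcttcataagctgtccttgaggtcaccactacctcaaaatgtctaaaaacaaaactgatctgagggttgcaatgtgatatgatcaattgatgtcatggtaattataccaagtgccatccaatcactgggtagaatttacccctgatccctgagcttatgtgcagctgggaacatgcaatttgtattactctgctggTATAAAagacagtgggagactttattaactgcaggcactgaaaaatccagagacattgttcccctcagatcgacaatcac
The Prl window held 2 matches to ATGNATA, starting 148 and 47 bases before the gene's start, and 2 overlapping matches to TATAAA, 1 on each strand. Pomc and Cga held 1 TATAAA each, 25 and 30 bases before the start, and no ATGNATA. The Pitx1 core TAATCC was found in 0 of the 3 windows. Among 32851 promoter windows of the same length, 8.84% held ATGNATA, 13.6% held TATAAA and 7.06% held TAATCC. A match is a stretch of letters and not a measured binding site.

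All 12 probe sets of the 5 genes were lower in GL261 than in normal brain without overlap between the groups. Over all 45037 non-control probe sets, 7.86% were lower in GL261 without overlap. Since Gh and Ttr were chosen for this contrast, the 8 probe sets of these genes add nothing to that comparison. The differences below are GL261 minus normal brain on the log2(signal + 6.17) scale, where the added constant shrinks the change of dim probe sets. In sorted bulk samples, fewer cells of a type and less RNA per cell cannot be told apart.

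**Figure D1:**
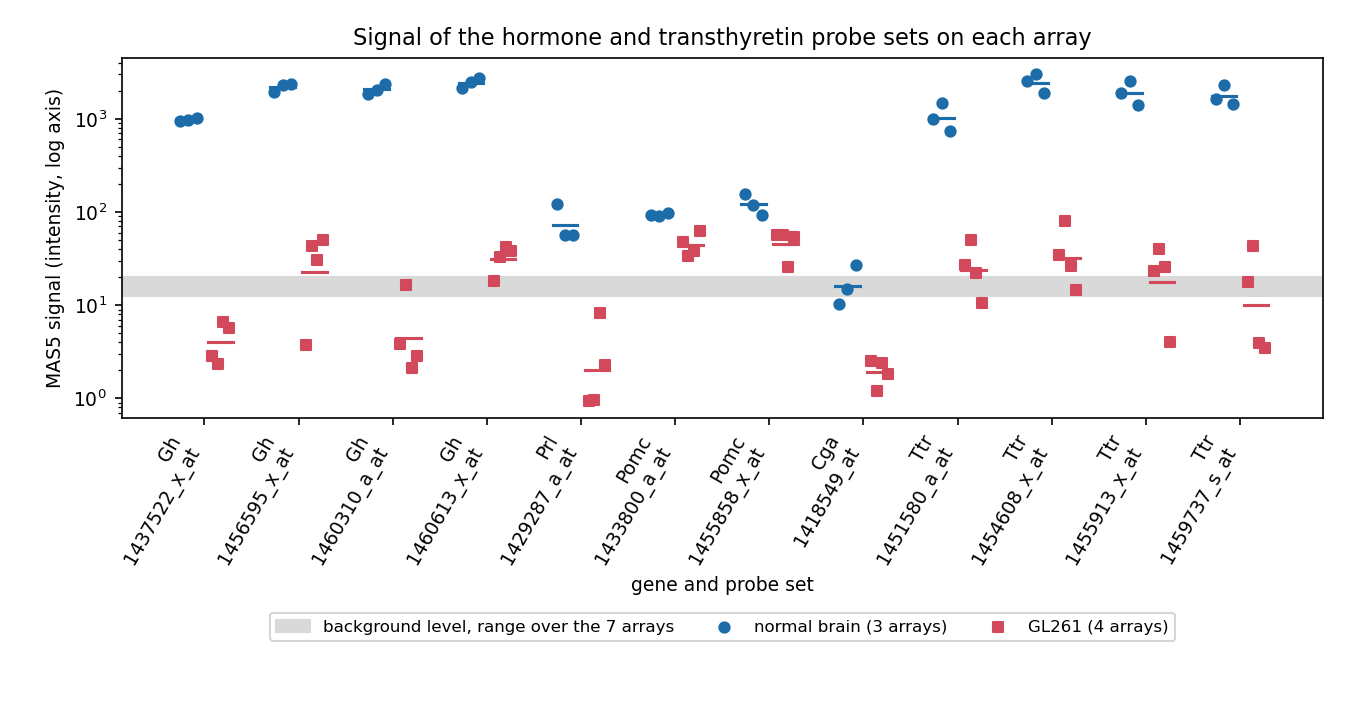
MAS5 signal (log axis) of every probe set of Gh, Prl, Pomc, Cga and Ttr on each of the 7 arrays, with blue circles for normal brain (n = 3), red squares for GL261 (n = 4), a short line at the mean of the log signals of a group, and the grey band for the range of the background level (12.4 to 20.1). The Gh and Ttr circles lie between 739 and 3026.5 and the squares between 2.10 and 80.2, the Pomc squares lie above the band, and the Cga circles lie within or next to it.

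Growth hormone is the somatotroph product that acts on liver and other tissues through its receptor and raises Igf1. Its brightest probe set, 1460613_x_at, read 2133, 2489 and 2720.1 on the normal brain arrays and 18.0, 33.0, 42.1 and 37.9 on the GL261 arrays, in the order of the replicate numbers, which is kept for all genes. The log2 means were 11.25 ± 0.18 (SD, n = 3) and 5.24 ± 0.44 (SD, n = 4), a difference of -6.02. Every normal brain array was bright and every GL261 array was dim but above its background, and the dimmest normal brain array was 50.6 times the brightest GL261 array.

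Gh probe set 1456595_x_at read 1950.1, 2316 and 2345 in normal brain and 3.76, 43.5, 30.8 and 50.4 in GL261, a difference of -6.11. Here GL261 replicate 1 fell under background while the other 3 arrays stayed above it. Gh probe set 1460310_a_at read 1865, 2036 and 2380.5 against 3.82, 16.4, 2.10 and 2.86, a difference of -7.52. On this one only GL261 replicate 2 exceeded background. Gh probe set 1437522_x_at read 956, 982 and 1013 against 2.86, 2.36, 6.57 and 5.75, a difference of -6.57. All 4 GL261 arrays were at background, so Gh was at least 68.6-fold lower by this probe set, as the normal brain mean over the mean background of the GL261 arrays. With a constant at the median signal or of 1 in the logarithm, the difference of 1437522_x_at was -4.06 or -7.60 and that of 1460310_a_at was -5.06 or -8.53.

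Over the 4 Gh probe sets, 8 of 16 GL261 values exceeded the background of their array, and 7 of these came from the 2 probe sets 1456595_x_at and 1460613_x_at. Both carry the suffix _x_at, as 1437522_x_at does, which on this array design can mark probes that also match other sequences. The normal brain arrays differed little, with a coefficient of variation of 2.86% to 12.5% by probe set. Replicate 1 was the lowest of the 3 on 4 of 4 Gh probe sets. Within normal brain these probe sets ranked high, between the percentiles 83.0 and 93.1 of the signals of their array.

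Prolactin, the lactotroph hormone and a relative of growth hormone, was measured by 1 probe set, 1429287_a_at. It read 121, 56.7 and 57.4 in normal brain and 0.934, 0.968, 8.19 and 2.29 in GL261. All 3 normal brain arrays were above background and 0 of 4 GL261 arrays were, and the dimmest normal brain array was 6.92 times the brightest GL261 array. Prl was at least 5.11-fold lower in GL261 by the bound against background. The log2 means were 6.32 ± 0.58 (SD, n = 3) and 3.15 ± 0.48 (SD, n = 4), a difference of -3.17.

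Prl was too dim on average (4.51 on the log2 scale) to pass the filter on low signal at 4.94. In the fit without that filter it fell by 3.17 (SE 0.52, 95% interval -4.32 to -2.02, limma adjusted p = 0.0164), and it was the one probe set of Prl, Pomc and Cga called there. Over the 45037 probe sets of that fit, 0.884% were called lower. The call was lost without GL261 replicate 1 (adjusted p = 0.0696) and without GL261 replicate 4 (adjusted p = 0.0587). It held in the other 5 of the 7 fits that leave out 1 array. The size depended on the constant added before the logarithm: the difference was -1.13 with a constant at the median signal and -4.50 with a constant of 1. Normal brain replicate 1 gave a higher Prl signal than the other two, while the same array gave the lowest Gh signal.

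Pro-opiomelanocortin is the precursor that is cut to ACTH, melanocyte-stimulating hormones and beta-endorphin. Pomc probe set 1455858_x_at read 158, 119 and 93.1 in normal brain and 57.0, 56.2, 25.5 and 53.7 in GL261. The difference was -1.28 (SE 0.52, 95% interval -2.41 to -0.14, limma adjusted p = 0.176). Probe set 1433800_a_at read 92.1, 90.8 and 96.9 against 48.2, 33.6, 38.6 and 63.0. Its difference was -0.97 (SE 0.49, 95% interval -2.04 to 0.11, limma adjusted p = 0.280).

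Neither Pomc probe set passed the test, although the groups did not overlap on either. Among the 27022 tested probe sets 5.49% were called, 2.48% lower and 3.02% higher, and 9.45% were lower without overlap. Unlike Prl, Pomc was above background on all 7 arrays by both probe sets, and the dimmest normal brain array was only 1.63 and 1.44 times the brightest GL261 array. The adjusted p ranged from 0.107 to 0.452 over the alternative settings for 1455858_x_at and from 0.106 to 0.549 for 1433800_a_at, where the highest values come from fits without the filter that leave out 1 array.

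Cga encodes the alpha subunit of thyrotropin, luteinising hormone and follicle-stimulating hormone. Its probe set 1418549_at read 10.4, 14.8 and 26.7 in normal brain and 2.51, 1.20, 2.41 and 1.81 in GL261. Only normal brain replicate 3 was above its background, and the other 6 arrays were under theirs, so no fold is given. The values differed by -1.47 on the log2 scale, and by -0.32 or -2.54 with a constant at the median signal or of 1. With a mean of 3.65 on the log2 scale Cga did not pass the filter, and without it the adjusted p was 0.0577 (SE 0.34, 95% interval -2.22 to -0.72, limma). Leaving out 1 array in that fit gave 0 of 7 calls, with adjusted p from 0.0597 to 0.142.

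The genes of the beta subunits gave signals near background in both groups. Tshb, of thyrotropin, read 16.6, 2.54 and 14.9 in normal brain and 16.5, 6.05, 14.7 and 2.02 in GL261. Fshb, of follicle-stimulating hormone, was at or under background on all 7 arrays, with a highest signal of 14.6. Lhb, of luteinising hormone, was under background on the 3 normal brain arrays and above it on 2 of 4 GL261 arrays, at 14.2 and 17.9. None of these 3 genes passed the filter. Of the 7 anterior pituitary hormone genes measured, Gh, Prl and Pomc were thus above background on every normal brain array.

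Genes that mark or regulate pituitary cells were counted from lists, with each gene read by its brightest probe set. Over all 12126 genes tested, 7.27% were called, 3.05% lower and 4.22% higher in GL261, and the median difference was 0.04. At an unadjusted p under 0.05 (limma), 1794 of these 12126 genes were higher and 1288 lower. Of 15 pituitary lineage factors 12 were measured and 2 passed the filter, and 0 were called (limma; 0 also at an unadjusted p under 0.05), with a median of -0.38 over those 2. Gata2, a factor of thyrotrophs and gonadotrophs that blood cells also use, differed by -0.44 (adjusted p = 0.696), and Lhx4 by -0.33 (adjusted p = 0.743). Pitx1, a factor of the early pituitary, did not pass the filter and read 78.6, 25.1 and 42.0 in normal brain and 30.3, 4.25, 5.27 and 30.8 in GL261, with overlapping groups. Isl1 and Pax7 were at background on all arrays, and Pou1f1 was not analysed here because no probe set carried its symbol alone.

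Of the 10 receptors for releasing factors and feedback signals, 1 passed the filter and 0 were called (1 lower at an unadjusted p under 0.05). Esr1, the oestrogen receptor, was lower without overlap, a difference of -0.65 (SE 0.27, limma adjusted p = 0.180). Ghrhr, the receptor through which the hypothalamus drives growth hormone release, read 27.3, 5.96 and 6.15 in normal brain and 1.95 to 4.08 in GL261. It was lower without overlap but above background on 1 array only. Crhr1 read 15.5 to 22.5 in normal brain and 10.4 to 12.6 in GL261, also lower without overlap. It was above background on 2 normal brain arrays and 0 GL261 arrays. The groups of the other receptors overlapped. Over all non-control probe sets 7.86% were lower without overlap. Ghsr and Avpr1b were at background throughout. Of 12 genes for hormone granules and prohormone processing 4 of the 11 measured passed and 0 were called (limma; 0 at an unadjusted p under 0.05). Cpe, a carboxypeptidase of the granules, read 421 to 2091 in normal brain and 743 to 1261 in GL261, a difference of -0.03 (adjusted p = 0.979). Chga, a granule protein of endocrine cells, was under background on all normal brain arrays. Without normal brain replicate 3, 1 gene of these pituitary lists was called, and it was higher in GL261.

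The 17 measured relatives of Prl from the prolactin family, most of them placental hormones, gave no gene that passed the filter, and 13 of them were at background on all 7 arrays. The brightest of them, Prl8a1, read 12.1 to 15.8 in normal brain and 6.47 to 20.8 in GL261. Hypothalamic and posterior lobe hormones were examined because the hypothalamus and the posterior lobe adjoin the anterior pituitary. Of 10 measured 5 passed and 0 were called (limma; 1 higher and 1 lower at an unadjusted p under 0.05). Oxt, oxytocin, read 151, 109 and 63.4 in normal brain and 26.0, 19.8, 48.7 and 46.5 in GL261, without overlap, a difference of -1.45 (SE 0.55, adjusted p = 0.147). Avp, vasopressin, differed by -1.01 (adjusted p = 0.352), and Npy by 1.75 (adjusted p = 0.245). Pmch, melanin-concentrating hormone, was higher in GL261 without overlap, at 13.6 to 47.8 against 54.0 to 141, a difference of 1.66 (adjusted p = 0.114). Besides Oxt, Sst and Hcrt were lower in GL261 without overlap. Sst differed by -0.66 (limma adjusted p = 0.471) and Hcrt, which did not pass the filter, by -1.60. The groups of the other measured genes of this list overlapped.

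**Figure D2:**
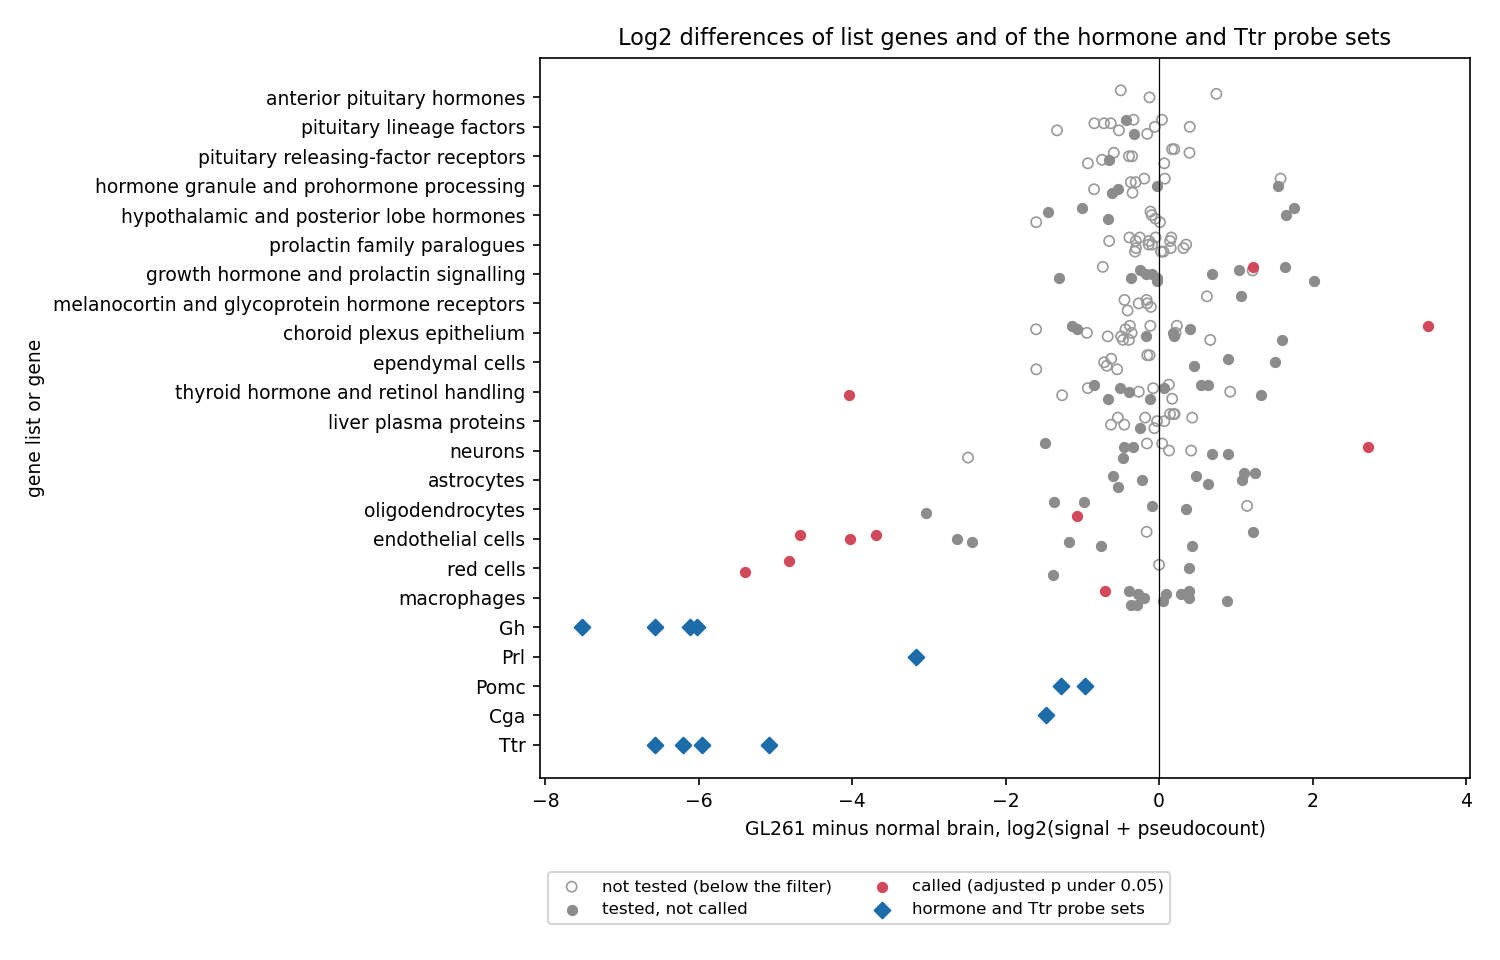
GL261 minus normal brain on the log2(signal + 6.17) scale for each measured gene of 18 lists other than the 5 genes themselves, and below them every probe set of Gh, Prl, Pomc, Cga and Ttr as blue diamonds. Open circles did not pass the filter, grey points were tested and not called, and red points were called at an adjusted p under 0.05, and the Gh and Ttr diamonds lie between -7.52 and -5.08, beyond all list genes but Hbb-b2 at -5.39.

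The receptors and signalling parts that respond to these hormones were followed in the same fit. Prlr, the prolactin receptor, was listed but was not among the genes measured here. Of 14 measured growth hormone and prolactin signalling genes 12 passed, 1 was called higher and 0 lower, with a median of -0.03. The called gene was Cish, an inhibitor of cytokine signalling that STAT5 induces. Cish read 469, 435 and 562 in normal brain and 852, 871, 2033 and 1125 in GL261 and rose by 1.22 (SE 0.31, limma adjusted p = 0.0429). The call was fragile, since it remained in the fit without GL261 replicate 2 (adjusted p = 0.0432) and was lost in the other 6 that leave out 1 array, with the highest value of 0.104 without GL261 replicate 3.

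Socs2, which limits growth hormone signalling, differed by 1.64 (adjusted p = 0.0788), and its other probe sets ran from -1.24 to 0.94. Without GL261 replicate 2 the Socs2 call was made (adjusted p = 0.00182). Igf1, the main target of growth hormone in liver, differed by 0.69 (adjusted p = 0.111). Jak2, Stat5a and Stat5b, the kinase and transcription factors downstream of both receptors, differed by -0.10, -0.17 and -0.37. Ghr, the growth hormone receptor, did not pass the filter by any of its 3 probe sets, each of which was above background on 2 or 3 of the 7 arrays, and their differences ran from -0.73 to 1.22. Of 8 measured receptors for melanocortins and glycoprotein hormones 1 passed and 0 were called (limma; 0 at an unadjusted p under 0.05). That gene was Mrap, an accessory protein of the ACTH receptor, at 1.07 (adjusted p = 0.468), and Mc1r, Mc2r, Mc3r and Tshr were at background on all arrays.

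Transthyretin read high in normal brain by all 4 of its probe sets. The brightest, 1454608_x_at, read 2538, 3026.5 and 1875 in normal brain and 34.2, 80.2, 26.3 and 14.5 in GL261. The log2 means were 11.25 ± 0.35 (SD, n = 3) and 5.29 ± 0.86 (SD, n = 4), a difference of -5.96. The dimmest normal brain array was 23.4 times the brightest GL261 array, and 3 of 4 GL261 arrays were above background.

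Ttr probe set 1455913_x_at read 1909.7, 2543 and 1401 against 23.2, 40.1, 25.8 and 4.04, a difference of -6.20. Ttr probe set 1459737_s_at read 1617, 2281 and 1435 against 17.7, 43.2, 3.91 and 3.44, a difference of -6.57. Ttr probe set 1451580_a_at read 988, 1492 and 739 against 26.8, 49.5, 22.3 and 10.6, a difference of -5.08. The 4 probe sets gave the same order among the normal brain arrays, with replicate 2 highest and replicate 3 lowest on 4 of 4. GL261 replicate 2 was the highest GL261 array on 4 of 4 as well, and 11 of 16 GL261 values exceeded background. With the other constants the Ttr differences ran from -7.23 to -3.69.

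Of the other genes of the choroid plexus epithelium that were tested, none was called lower in GL261 (limma; 0 lower also at an unadjusted p under 0.05). Of 24 listed genes 21 were measured, 8 passed the filter, 0 were called lower and 1 higher, with a median of 0.19 over the 8 and of -0.36 over the 21. The 8 were Aqp1, Rdh5, Atp1b1, Calml4, Ecrg4, Igf2, Krt18 and Igfbp2. Folr1, Kl, Clic6, Otx2, Kcnj13, Kcne2, Slc4a5, Slc4a10, Tmem72 and Sostdc1 were among those too dim to be tested. The count of calls therefore says nothing of these dim genes. Slc4a10, a bicarbonate transporter, did not pass the filter and read 25.6 to 100.2 in normal brain and 2.74 to 21.7 in GL261, without overlap, a difference of -1.60. The summed signal of the 21 genes ran from 1407 to 2061 in normal brain and from 1620 to 2935 in GL261. Much of that sum came from Atp1b1 (443 to 780 in normal brain and 529 to 1125 in GL261) and Igf2 (165 to 732 and 230 to 623). The sum therefore says little of dim genes such as Slc4a10 and Kl. Clic6, Kcne2 and Tmem72, which choroid plexus cells express with few other brain cells, were at background on all 7 arrays. Folr1, the folate receptor of this epithelium, read 16.5, 5.78 and 21.5 in normal brain and 0.819, 11.9, 16.0 and 13.2 in GL261. Kl, the anti-ageing protein klotho, did not pass the filter and read 36.1, 28.8 and 31.3 in normal brain and 21.0, 6.16, 21.7 and 10.5 in GL261, without overlap. Its other probe set, also below the filter, read 8.47 to 21.9 in normal brain and 2.34 to 17.3 in GL261, with overlapping groups.

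The gene called higher was Aqp1, a water channel of the choroid plexus that red cells and vessels also make. Aqp1 read 23.8, 9.24 and 2.11 in normal brain and 50.7, 148, 554 and 193 in GL261, opposite to Ttr, and rose by 3.50 (SE 0.77, limma adjusted p = 0.0250). The adjusted p passed 0.05 when normal brain replicate 2 (0.0635) or 3 (0.0729) or GL261 replicate 3 (0.0681) or 4 (0.0684) was left out. Igf2 differed by -0.16 (adjusted p = 0.890) and Ecrg4 by -1.08 (adjusted p = 0.490). Of 10 ependymal genes 3 passed and 0 were called (limma). At an unadjusted p under 0.05 (limma), 2 of these 3 were higher, as were 1794 of all 12126 genes tested.

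Genes of liver, the other main source of transthyretin, gave low signals. Of 12 measured liver plasma protein genes 1 passed and 0 were called (limma; 0 at an unadjusted p under 0.05), and Fga, Ttpa, Serpina1b and Ahsg were at background on all arrays. Apoa2 differed by -0.26 (adjusted p = 0.846), and Alb, albumin, read 10.1 to 25.4 in normal brain and 18.6 to 43.3 in GL261. Of 17 measured genes that handle thyroid hormone or retinol 10 passed, 0 were called higher and 1 lower, with a median of -0.25.

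The gene called lower was Slco1c1, a thyroid hormone transporter of brain vessels and choroid plexus. Slco1c1 read 1949, 1842 and 1586 in normal brain and 91.9, 683, 10.4 and 117 in GL261 and fell by 4.05 on the log2 scale (SE 0.91, limma adjusted p = 0.0275). The call remained without GL261 replicate 2 (0.00269) or GL261 replicate 3 (0.0324) and was lost without each of the other 5 arrays, at up to 0.0736. Rbp4, the retinol carrier that binds transthyretin, did not pass the filter and read 13.2, 27.0 and 22.0 in normal brain and 15.6, 1.55, 6.59 and 0.515 in GL261. Thra differed by -0.84 (adjusted p = 0.189) and Rxra by 0.63 (adjusted p = 0.169).

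Some vessel and red cell genes were also called lower in GL261, and others were not. Of 9 tested endothelial genes 3 were called lower and 0 higher, with a median of -2.44, and of 4 tested red cell genes 2 were called lower and 0 higher, with a median of -3.11. The endothelial calls were Slco1a4, an organic anion transporter (-4.68, limma adjusted p = 0.0189), Tek, the angiopoietin receptor (-4.03, 0.0199), and Cldn5, a tight junction protein (-3.69, 0.0327). Hbb-b2, a beta globin, read 9087, 12234 and 15120 in normal brain and 65.5, 4187, 108 and 180.2 in GL261, a difference of -5.39 (limma adjusted p = 0.0157). Alas2, the first enzyme of haem synthesis in red cells, read 317, 514 and 928 against 1.67, 246, 1.07 and 2.97, a difference of -4.83 (limma adjusted p = 0.0297). Hba-a2, an alpha globin, read 2811 to 3610.1 in normal brain and 3008 to 5265 in GL261, with overlapping groups, a difference of 0.39 (limma adjusted p = 0.278). Pecam1, an adhesion protein of endothelial cells that macrophages also carry, read 41.2 to 98.3 against 129 to 208, without overlap, a difference of 1.23 (limma adjusted p = 0.174).

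These calls depended on which arrays were kept. Without GL261 replicate 2 all 5 remained, with Cldn5 at 0.000993 and Hbb-b2 at 5.96e-06. Hbb-b2 was lost without GL261 replicate 3 (0.0549) or GL261 replicate 4 (0.0504), and Cldn5 and Alas2 were lost without any array but GL261 replicate 2, at up to 0.0949 and 0.0925. Slco1a4 was lost without replicate 3 of normal brain (0.0567) and without GL261 replicate 1 (0.0526) or 4 (0.0552). Tek was lost without replicate 1 (0.0514) or 2 (0.0670) of normal brain and without GL261 replicate 4 (0.0578).

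**Figure D3:**
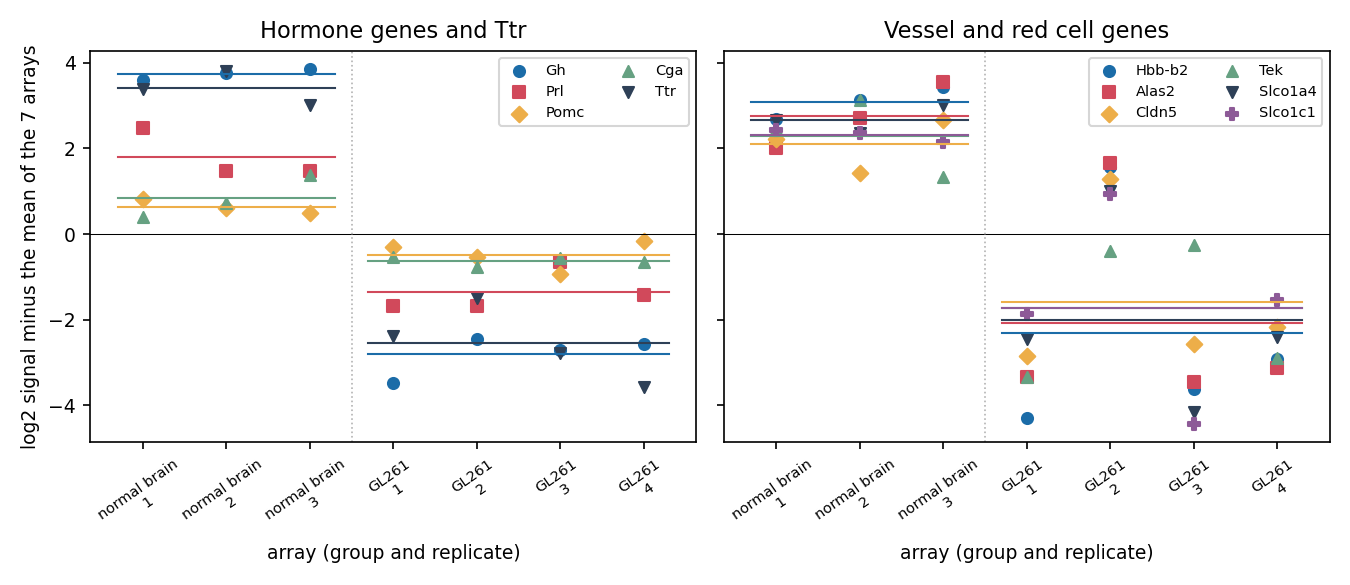
Log2 signal minus the mean of the 7 arrays (vertical axis) on each array (horizontal axis) for the 5 genes on the left, each as the mean over its probe sets, and for the brightest probe set of 6 vessel, red cell and transporter genes on the right, with a line at the mean of each group. On GL261 replicate 2 Hbb-b2 and Cldn5 lie above 0, at 1.58 and 1.28, while Gh and Ttr lie below it, at -2.46 and -1.48.

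The profiles of Hbb-b2, Alas2, Cldn5 and Slco1a4 and that of Gh parted on GL261 replicate 2. On that array Hbb-b2 and Cldn5 stood 1.58 and 1.28 above their means over the 7 arrays on the log2 scale, and Gh, as the mean over its probe sets, stood at -2.46 and Ttr at -1.48. Alas2 and Slco1a4 stood at 1.66 and 1.01 there, while Tek stood at -0.40, close to its -0.26 on GL261 replicate 3. On GL261 replicates 1, 3 and 4 Gh stood at -3.49, -2.71 and -2.58, Ttr at -2.37, -2.78 and -3.57, and Hbb-b2 at -4.29, -3.62 and -2.91. Without GL261 replicate 2 the Gh differences ran from -7.85 to -6.04 by probe set and the Ttr differences from -7.05 to -5.37. The part of vessel and red cell RNA in the Gh, Prl and Ttr differences was not tested.

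Among 21 tested genes of neurons, oligodendrocytes and astrocytes 2 were called. Of 7 tested neuronal genes 1 was called higher and 0 lower, Tubb3, a neuronal tubulin (2.72, limma adjusted p = 0.0441), with a median of -0.34. Tubb3 was higher without overlap, while Eno2 (-1.49, limma adjusted p = 0.0719) and Stmn2 (-2.49, below the filter) were lower without overlap. Over all non-control probe sets 7.86% were lower in GL261 without overlap. Of 6 tested oligodendrocyte genes 1 was called lower and 0 higher, Mbp, a myelin protein (-1.07, limma adjusted p = 0.0475). Their median was -1.02, and 3 were lower at an unadjusted p under 0.05 (limma), as were 1288 of all 12126 genes tested. Mal was lower without overlap (-3.04, limma adjusted p = 0.0616). Of 8 tested astrocyte genes 0 were called (limma, with 1 higher at an unadjusted p under 0.05), with a median of 0.56. That gene was S100b, which was higher in GL261 without overlap (1.25, limma adjusted p = 0.141). Among the 12 macrophage genes, Cx3cr1, a chemokine receptor of microglia, was called lower (-0.71, limma adjusted p = 0.0455), and Adgre1, which encodes the sort marker F4/80, differed by -0.39 (adjusted p = 0.110). These values are for the brightest probe set of each gene. The other Cx3cr1 probe set was also lower (-1.40, limma adjusted p = 0.0199). Of the other Mbp probe sets 1 was called lower (-1.38, limma adjusted p = 0.0103), and the rest were not called and ran from -1.09 to 0.48. The fits that leave out 1 array cover the brightest probe sets only. When 1 array was left out, Tubb3 kept its call without normal brain replicate 3 (0.0377) or GL261 replicate 2 (0.0408) and missed the filter without GL261 replicate 3. Mbp kept its call without normal brain replicate 1 (0.0421) or GL261 replicate 3 (0.0300), and Cx3cr1 without GL261 replicate 2 (0.0458). In the other fits that leave out 1 array these 3 genes were not called, with adjusted p up to 0.119, 0.141 and 0.130.

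Among all tested genes, those with the profile most like that of Gh over the 7 arrays were sought by the root mean square difference between centred log2 profiles. The 5 nearest were the immunoglobulin kappa genes Igkv9-120 (0.66) and Igk-V21 (0.69), Ttr (0.74), Igkv14-111 (0.97) and Cavin2, a caveolar protein (1.08). The other Gh probe sets lay at 0.35 to 0.92 from the brightest. The same 4 genes other than Ttr, with Gh, were the 5 nearest to Ttr, namely Igkv9-120 (0.44), Igk-V21 (0.57), Gh (0.74), Cavin2 (0.77) and Igkv14-111 (0.93), and the other Ttr probe sets lay at 0.32 to 0.47. Prl lay at 1.49 from Gh, Cga at 2.28, and the Pomc probe sets at 2.42 and 2.53, where all these values include the size of the group difference. They describe 7 arrays and say nothing of a shared source.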

How the data were processed

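Expression was measured in 3 normal brain and 4 GL261 samples. The authors deposited a linear signal intensity for every probe set, made with MAS5 per the submitters' processing notes. The MAS5 version is not given in the sources used here. The trimmed mean signal was about 500.0 on every array, and no further scaling was applied. Of 45101 probe sets 64 were controls, 34945 had 1 symbol, 932 several and 9160 none.

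Values were analysed as log2(signal + 6.17), the constant being the 20th percentile of all values. The 27022 non-control probe sets with a mean above 4.94, the 40th percentile, were tested in R 4.3.3 with limma 3.58.1 (lmFit, eBayes with a trend), two-sided, with Benjamini-Hochberg adjustment, and called at an adjusted p under 0.05. Prl and Cga were tested in the same fit without the filter. Named were all probe sets of the 5 genes, from each list up to 3 called genes in each direction, and the 5 nearest profiles. Where none was called, the 2 genes with the highest mean were to be named, but this was not done for every list. Other list genes were named after their values were seen, as examples of low, bright or opposite signals or of groups without overlap. The genes and lists were chosen with earlier results of these data known. Replicate numbers were not used to pair the samples in the reported fit. The same-number correlations were 0.117, -0.0319 and 0.0728, and those of unlike numbers ran from -0.127 to 0.119. With so few arrays these values cannot show whether arrays of the same number share a batch. In simulated data for GL261 against normal brain, over 5 runs of 27022 probe sets, 10% of probe sets changed by log2 1 were recovered, 38.8% at log2 2, 86.4% at 4 and 98.8% at 6, and 4.88% of calls were false. In each run 200 probe sets were changed, a smaller share than was called in the measured data. The noise was normal with variances drawn from the fitted prior, and no floor was set on the signal. Recovery in the measured data can therefore differ. Plots were made with matplotlib 3.10.9 under Python 3.11.15.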

Additional observations from a re-analysis of the deposited data

Results flagged for a closer look

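On Pomc probe set 1455858_x_at, GL261 replicate 3 lay far below the other 3 GL261 arrays, with a gap of 0.923 of the whole range of that group. For the vessel gene Cldn5 and the red cell gene Alas2, GL261 replicate 2 lay far above the other 3, with gaps of 0.837 and 0.934 of the range. Dixon's limit for 4 arrays was passed by 3 of the 23 sets examined, where chance passes about 1 in 20.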

How the results depend on the processing

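The 12 probe sets of the 5 genes were lower in GL261 under each alternative in which they were fitted: a constant of 1 or the median, no filter or one at the 60th percentile, median centring, quantile normalization, a replicate block, 1 probe set per gene, array quality weights, a prior variance that does not follow the signal, and leaving out each array. The fit without the filter was repeated without each array for Prl, Pomc and Cga after seeing the data.

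The reported fit called 1484 probe sets, 669 lower and 815 higher, and 11 list genes. Without the filter 848 were called, 398 lower and 450 higher, with 3 list genes and 1 probe set of Prl, Pomc and Cga instead of 0. A prior variance that does not follow the signal gave 342, 127 lower and 215 higher, and 0 list genes. The filter at the 60th percentile gave 6 list genes and array weights 3. Leaving out 1 array gave 523 to 1359 probe sets, 255 to 650 lower and 268 to 919 higher, and 0 to 11 list genes. It gave 0 to 1 genes of the pituitary cell lists. The Pomc probe sets were called in 0 of these 7 fits. Prl and Cga did not pass the filter in any of them, so they could not be called there. Without the filter, leaving out 1 array called Prl in 5 of 7 fits and Cga in 0.

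With the replicate number as a block, 1299 probe sets were called, 741 lower and 558 higher, and the Pomc probe sets stayed uncalled (adjusted p = 0.323 and 0.232). The causes of these changes were not tested. Signals near background limit Prl and Cga most.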
